A study of Mus musculus with 18 samples.

Results

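The proteasome genes were examined in liver RNA-Seq of mice given ASNase, an enzyme that depletes circulating asparagine and glutamine, or PBS. The genes were taken by name, as all genes whose symbol starts with Psm, a letter from a to g and a number, without pseudogenes, and with status OK (a successful estimate) in all 6 groups. The names matched 53 genes, 4 of them pseudogenes, which left 49 of the 37303 genes in the table, all with status OK in all 6 groups. One of the 49, *Psmc3ip*, shares only the name: it encodes a protein of meiotic recombination that was named for binding a proteasome ATPase, and it is listed apart. The subgroups were 8 core α genes, 7 constitutive core β genes, 3 immunoproteasome genes, the thymic subunit *Psmb11*, 6 regulatory ATPases, 11 regulatory non-ATPases, 3 chaperones of regulatory particle assembly, 4 chaperones of core assembly, 4 activators and the regulator *Psmf1*.

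The proteasome degrades proteins tagged with ubiquitin, and liver uses it to turn over damaged and short-lived proteins. The core particle is a barrel of stacked rings, with α subunits forming the outer gates and β subunits the inner rings, and *Psmb6*, *Psmb7* and *Psmb5* carry the constitutive active sites. The regulatory particle caps the barrel, binds ubiquitin chains, removes them and drives the unfolded protein inside with a ring of ATPases. Under interferon gamma, cells build *Psmb9*, *Psmb10* and *Psmb8* into new core particles in place of the constitutive active subunits, which favours peptides that load onto MHC class I, and the PA28 activator made of *Psme1* and *Psme2* is induced along with them. Genes of the core and regulatory particles are raised together by the transcription factor NRF1 (*Nfe2l1*) when proteasome capacity is short.

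The 18 mice formed 6 groups of 3. WT, Gcn2-/- and Atf4-/- mice, all on the C57BL/6J background for at least 8 generations, were given 8 daily intraperitoneal injections of ASNase at 3 IU per gram body weight or the same volume of PBS, and livers were taken 7.5 h after an injection by the labels. Gcn2-/- mice lack the kinase that senses uncharged tRNA and Atf4-/- mice the transcription factor translated when that kinase acts. Both deletions are homozygous and whole-body, so non-hepatocytes of the liver carry them too. Age was 8 to 16 weeks by the sample labels and at most 12 weeks by the growth protocol, and each group mixed the sexes, with 1 male in WT PBS, Gcn2-/- PBS and Gcn2-/- ASNase and 2 in the other groups. The question was how loss of either part of the integrated stress response changed the liver under ASNase and under PBS.

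Each gene had 1 value per group, an FPKM (sequenced fragments scaled to transcript length and to the size of the library) that Cuffdiff estimated from the 3 libraries together, with an interval. There was therefore no SD, no p-value and no replicate check for any value here. A gene was compared when its FPKM was above 0 in both groups and over 3 in either, and it was called when the difference on the log2(FPKM + 0.1) scale was over 1.5 and the Cuffdiff intervals did not overlap. A second count, with no interval condition, took genes more than 1.5-fold higher or lower. The combined error of a difference was the root of the summed squared distances to the interval edges on the log2 scale, and it had a median of 0.99 to 1.02 over the proteasome genes. For a gene with the median error, only a difference of about 2-fold or more could be told from it. The error was far wider for several genes described here, at 1.51 to 2.47 log2 units for *Psmb8*, 3.37 to 5.48 for *Psmb9*, 6.41 to 7.27 for *Psmb10*, 7.82 to 8.16 for *Psmd13* and 9.10 to 9.83 for *Psme2* over the 8 comparisons. The intervals of *Psmb10*, *Psmd13*, *Psme2* and *Psmc3ip* reached 0 in all 6 groups. These genes could therefore not be called at any fold, and the size of their errors depends on the added 0.1.

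Some facts of the whole series touch every comparison. *Atf4* lay between 50.4 and 68.1 FPKM in the WT and Gcn2-/- livers and stood at 32.3 FPKM (PBS) and 29.3 FPKM (ASNase) in Atf4-/- livers. The Atf4-/- PBS interval of 19.1 to 45.5 overlapped that of WT PBS (29.7 to 71.1). The gene for GCN2, *Eif2ak4*, lay between 2.19 and 3.14 FPKM in every group, close to the limit of 3. A gene-level FPKM counts all exons of a gene, whichever are deleted, so neither gene's value checks the deletion, and the genotypes here are those of the labels. The paper reported both deletions from RNA read densities and also measured *Atf4* by RT-qPCR. Hepatocyte markers were abundant in all groups, with a median of 1616 to 3541 FPKM over the 5 or 6 of 7 that had an estimate (*Alb* had none). They were not level across groups: with ASNase their median log2 difference was -0.30 in WT, -0.99 in Gcn2-/- with 4 of 6 more than 1.5-fold lower, and -1.12 in Atf4-/- with 4 of 5 more than 1.5-fold lower. None of them was called, and *Tat* went the other way in both knockouts (613 to 1987 and 952 to 2013 FPKM). Skeletal muscle markers (5 genes) summed to 502 FPKM (PBS) and 733 FPKM (ASNase) in WT livers, to 0.422 and 0.521 in Gcn2-/- livers and to 38.2 and 84.0 in Atf4-/- livers. Pancreatic acinar markers summed to 41.3 FPKM in WT ASNase and 149 in Atf4-/- ASNase against 5.45 to 15.5 elsewhere. The libraries behind these signals cannot be separated in pooled values, and their part in the proteasome results was not tested. In whole liver, fewer cells of a type and less RNA per cell cannot be told apart.

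Of the 49 genes, 47 passed an FPKM of 3 in at least 1 group, and all 47 did so in every group. *Psma8*, the testis form of an α subunit, stayed at 0.381 to 0.714 FPKM and *Psmb11* at 0 to 0.00988, and neither was counted as higher, lower or called. Medians over the 49 genes include both, and those over the 8 α genes include *Psma8*. FPKM is per length, so levels can be set side by side. In WT PBS the constitutive β genes had a median of 144 FPKM (82.3 to 249) and the 8 α genes 112. The regulatory ATPases had 58.8 (48.7 to 89.6) and the regulatory non-ATPases 53.1 (35.8 to 89.2). Assembly factors were far lower, at 12.1 to 23.0 for the core chaperones *Psmg1* to *Psmg4* and 8.68 to 23.3 for *Psmd10*, *Psmd9* and *Psmd5*. The core genes were thus listed above the genes of the cap they bind, and the order constitutive β, α, ATPase and non-ATPase held for these 4 medians in all 6 groups. The step between the last 2 was the smallest, down to 51.9 against 50.9 FPKM in Gcn2-/- PBS, and levels of neighbouring subgroups overlapped gene by gene. *Psme2* was the highest of all at 617 FPKM, with an interval from 0 to 1295, and a pseudogene copy of it was left out by the rule.

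**Figure D1:**
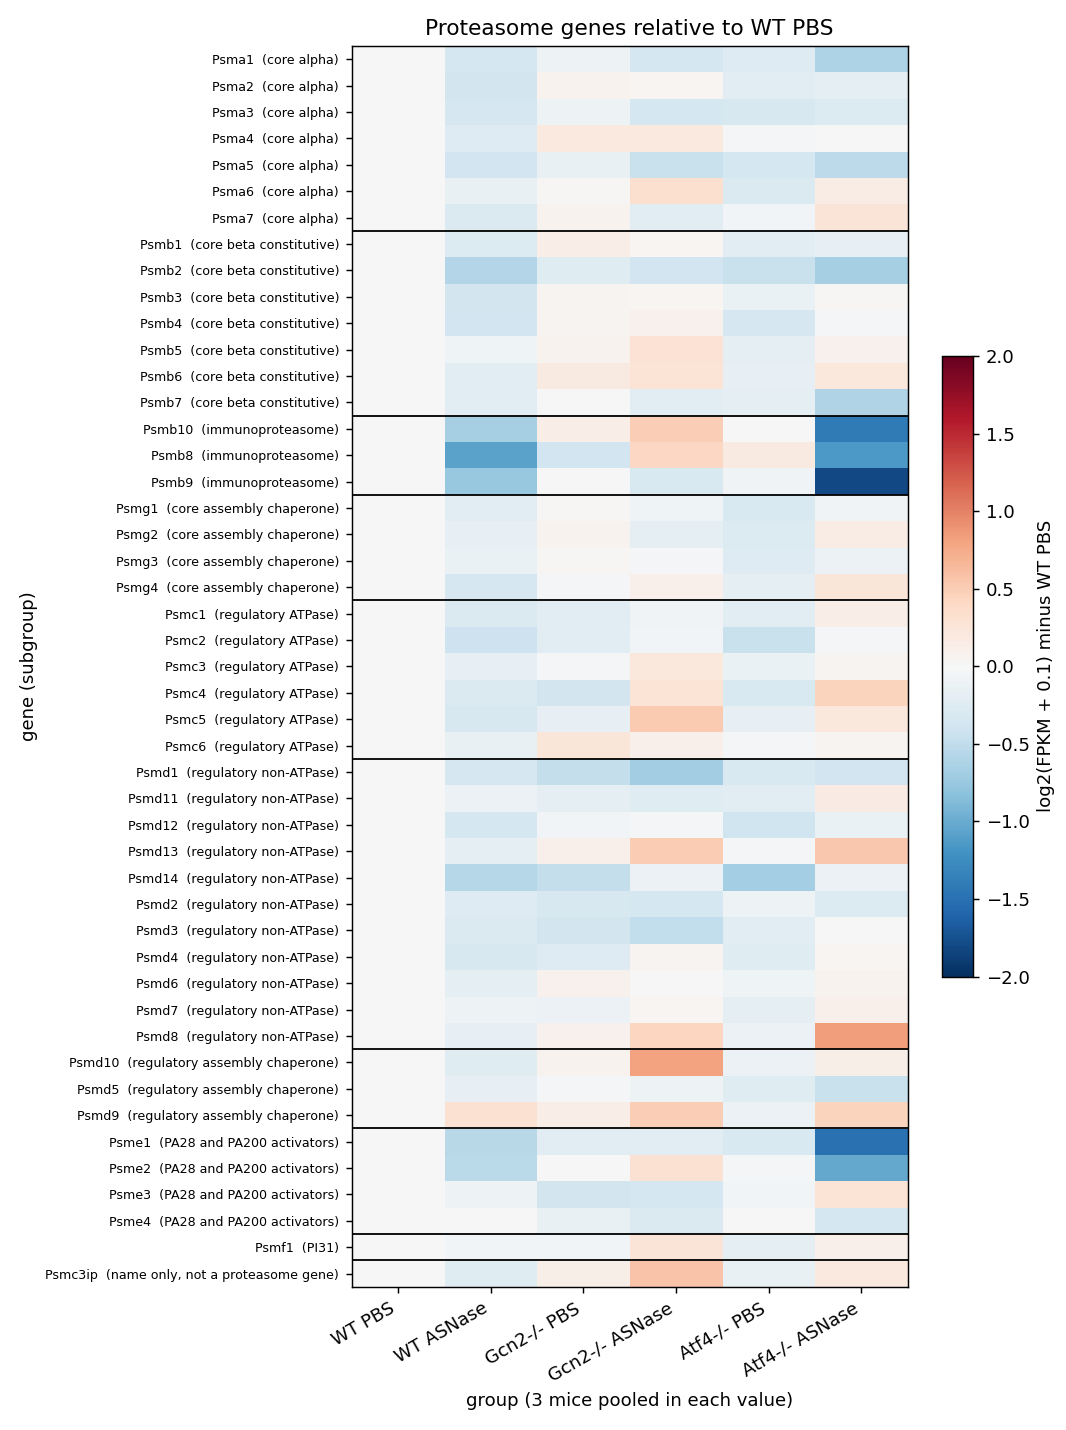
Log2(FPKM + 0.1) of the 47 compared genes in each group (columns) minus the WT PBS value, with genes (rows) grouped by subgroup, blue for lower and red for higher. The WT ASNase and Atf4-/- PBS columns are mostly pale blue, and the darkest cells are *Psmb8*, *Psmb9*, *Psmb10*, *Psme1* and *Psme2* in Atf4-/- ASNase.

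The 3 immunoproteasome genes ranged most widely over the 6 groups, by 1.57 to 1.91 log2 units from lowest to highest, followed by *Psme1* (1.49) and *Psme2* (1.33). Among the other 42 compared genes the widest range was 1.05, for *Psmd10*. All 5 were lowest in Atf4-/- ASNase. *Psmb8*, *Psmb10* and *Psme2* were highest in Gcn2-/- ASNase, and *Psmb9* and *Psme1* in WT PBS.

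*Psmb8* (chr17:34197721-34201454, plus strand, mm10), which replaces *Psmb5*, had 30.8 FPKM under PBS and 14.6 under ASNase in WT, 23.6 and 41.2 in Gcn2-/-, and 35.0 and 13.8 in Atf4-/- livers. It was low in ASNase-treated WT and Atf4-/- livers and highest in ASNase-treated Gcn2-/- livers. The log2 differences of ASNase from PBS were -1.07 in WT, 0.80 in Gcn2-/- and -1.34 in Atf4-/-, against combined errors of 1.65, 1.78 and 2.31, so the intervals overlapped in each strain.

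*Psmb10* (chr8:105935735-105938444, minus strand), which replaces *Psmb7*, had 30.7 FPKM under PBS and 19.4 under ASNase in WT, 33.7 and 43.1 in Gcn2-/-, and 30.6 and 11.4 in Atf4-/- livers. Like *Psmb8* it was highest in Gcn2-/- ASNase and lowest in Atf4-/- ASNase, and its intervals reached 0 in all 6 groups. *Psmb9* (chr17:34181987-34187764, minus strand), which replaces *Psmb6*, had 19.4 FPKM under PBS and 11.5 under ASNase in WT, 19.4 and 15.7 in Gcn2-/-, and 18.5 and 5.47 in Atf4-/- livers. Unlike *Psmb8* and *Psmb10*, *Psmb9* was not higher after ASNase in Gcn2-/- livers, with a log2 difference of -0.30 and a combined error of 4.92.

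**Figure D2:**
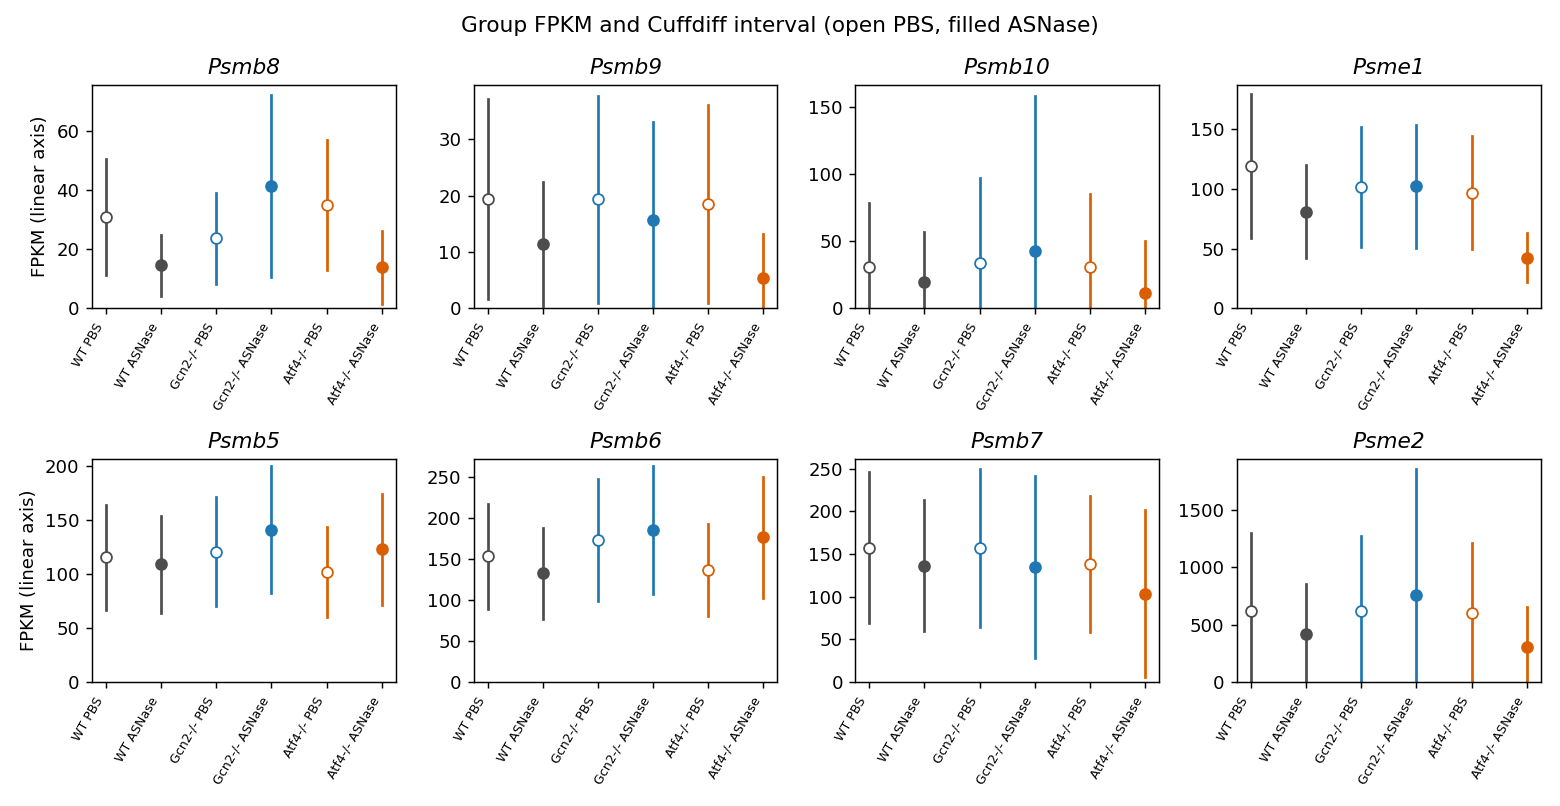
FPKM on linear axes from 0 (scales differ between panels) for 3 immunoproteasome genes, their constitutive counterparts and the PA28 genes in the 6 groups, with points for the pooled value of 3 mice and bars for the Cuffdiff interval. *Psmb8*, *Psmb10* and *Psme2* sit highest in Gcn2-/- ASNase, at 41.2, 43.1 and 761, and the bars of the 2 groups overlap in each of the 8 comparisons made.

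The constitutive counterparts varied much less. *Psmb5* had 115 FPKM under PBS and 109 under ASNase in WT, 121 and 141 in Gcn2-/-, and 101 and 123 in Atf4-/- livers. From here on, values of a gene are given in that order of the 3 strains, PBS before ASNase. *Psmb6* had 153 and 132, 173 and 185, and 136 and 176 FPKM. *Psmb7* had 157 and 137, 157 and 135, and 138 and 104 FPKM. Their ranges were 0.47, 0.48 and 0.60 log2 units, each under the median combined error.

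The ratio of inducible to constitutive subunit was therefore carried mostly by the inducible one. *Psmb8* stood at 26.7% of *Psmb5* in WT PBS and 13.4% in WT ASNase, at 19.6% and 29.3% in Gcn2-/-, and at 34.5% and 11.2% in Atf4-/- livers. *Psmb10* stood at 19.5% and 14.2% of *Psmb7* in WT, 21.4% and 31.9% in Gcn2-/- and 22.2% and 11% in Atf4-/- livers. *Psmb9* stood at 12.7% and 8.66% of *Psmb6* in WT, 11.2% and 8.48% in Gcn2-/- and 13.6% and 3.10% in Atf4-/- livers. In WT and Atf4-/- livers all 3 ratios were lower with ASNase, and in Gcn2-/- livers 2 of 3 were higher. These ratios have no interval of their own and were not tested.

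**Figure D3:**
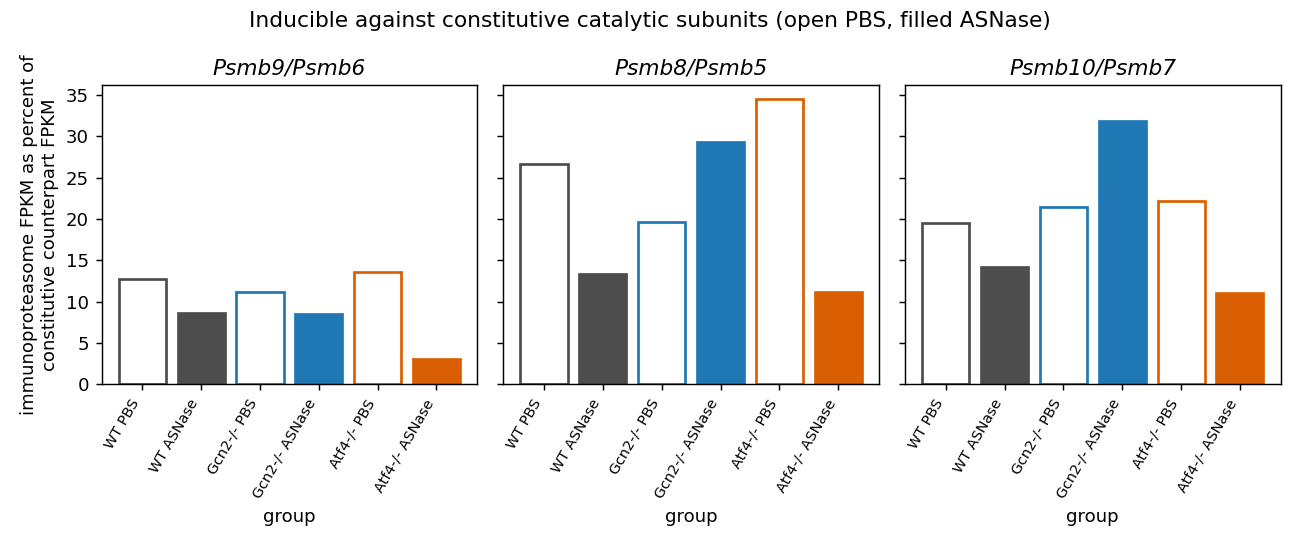
FPKM of each immunoproteasome gene as a percent of its constitutive counterpart (bars from 0) in the 6 groups, open for PBS and filled for ASNase. The Atf4-/- ASNase bar is the lowest in each panel, at 3.10%, 11.2% and 11%.

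The immunoproteasome genes *Psmb8* and *Psmb9* both lie in the MHC region of chr17, with the start of *Tap1* between their RefSeq starts. *Psmb9* shares a start region with *Tap1*, the peptide transporter gene of MHC class I loading. The GENCODE span of *Psmb9* given above reaches past the RefSeq start of *Tap1* (34187556), and 212 exon bases of *Psmb9* are shared with *Tap1*. The sequence between the RefSeq starts of *Psmb9* and *Tap1* is shown because both genes start from the edges of this one stretch (GRCm38.p6, plus strand, 225 bases, chr17:34187331-34187555). *Psmb9* is read to the left and *Tap1* to the right, and the capitals mark a CCAAT box.
Psmb9 to Tap1: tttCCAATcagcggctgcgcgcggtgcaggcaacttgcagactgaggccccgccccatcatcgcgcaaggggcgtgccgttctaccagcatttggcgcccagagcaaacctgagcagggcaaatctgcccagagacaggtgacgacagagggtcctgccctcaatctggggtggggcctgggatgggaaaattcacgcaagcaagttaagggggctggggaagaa

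The 60 bases before the RefSeq starts of *Psmb8* and *Psmb10* are shown beside those of the constitutive *Psmb5* and *Psmb6* because the pairs differed in range (5′ to 3′ on each gene's own strand). The capitals mark matches to TGACNNNGC, the core of the antioxidant response element that NRF1 and NRF2 bind, searched on both strands. The positions are chr14:54617996-54618055 minus for *Psmb5*, chr11:70525297-70525356 plus for *Psmb6*, chr17:34198135-34198194 plus for *Psmb8* and chr8:105938393-105938452 minus for *Psmb10*.
Psmb5: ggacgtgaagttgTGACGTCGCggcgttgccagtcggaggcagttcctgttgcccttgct
Psmb6: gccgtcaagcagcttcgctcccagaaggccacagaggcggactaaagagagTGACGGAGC
Psmb8: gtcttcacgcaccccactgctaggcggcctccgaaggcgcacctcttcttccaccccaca
Psmb10: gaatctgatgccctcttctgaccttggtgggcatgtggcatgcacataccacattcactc

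*Psmb5* and *Psmb6* each held 1 match in these 60 bases and *Psmb8* and *Psmb10* none, and *Psmb7* was not in the promoter table. Windows from 250 bases before to 50 after the start were found for 41 of the 49 genes (44 windows). TGACNNNGC was in 13.6% of them, against 12.4% of all 32851 windows of the table. CCAAT was in 34.1% against 37.4%, the C/EBP-ATF core TGATGNAA in 2.27% against 3.97%, and the interferon-stimulated response element core GAAANNGAA in 15.9% against 8.56%. The last was in the windows of 7 genes, *Psmb3*, *Psmb4*, *Psmc2*, *Psmd4*, *Psmd9*, *Psme1* and *Psmg4*, and in none of the immunoproteasome genes. The matches are descriptions of letters, not binding sites.

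*Psme1* (chr14:55578123-55581529, plus strand), the α subunit of the PA28 cap that opens the core without ATP, had 119 FPKM under PBS and 81.1 under ASNase in WT, 102 in both Gcn2-/- groups, and 96.9 and 42.4 in Atf4-/- livers. Its lowest value, in Atf4-/- ASNase, was 2.28-fold below Atf4-/- PBS, a log2 difference of -1.19 that was larger than its combined error of 1.08. It was also lower than in Gcn2-/- ASNase by more than the error (-1.27 against 1.103), and its intervals still overlapped in both comparisons (22.0 to 62.9 against 49.7 to 144 and 50.5 to 154).

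*Psme2*, its β partner on the same chromosome and named here after its values were seen, had 617 and 423, 617 and 761, and 598 and 303 FPKM. It was lowest where *Psme1* was lowest, and its intervals reached 0 in all groups. The nuclear activator *Psme3*, which is not part of that pair, had its highest value in Atf4-/- ASNase, at 32.4 FPKM against 20.8 to 26.8 elsewhere. *Psme4*, encoding PA200, moved least of the activators, with 24.8 and 24.7, 22.3 and 20.2, and 24.8 and 19.3 FPKM.

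In WT livers given ASNase, 46 of the 47 compared genes had a lower value than under PBS, a share of 97.9% against 51.0% of the 9084 genes compared. The shift was small, with a median log2 difference of -0.26 over the 49 genes against -0.01 over all genes compared. No proteasome gene was called (0.881% of all genes were), none had intervals apart, and none exceeded its combined error (1.70% of all genes did). In this comparison 4 genes were more than 1.5-fold lower, against 3.48% of all genes, and none was more than 1.5-fold higher, against 4.73%. The 4 were the 3 immunoproteasome genes and *Psmb2*.

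Every subgroup median lay below 0. The medians were -0.31 for the 8 α genes (-0.33 for the 7 compared), -0.27 for the constitutive β genes, -0.75 for the immunoproteasome genes, -0.29 for the ATPases, -0.26 for the non-ATPases and -0.19 for the core chaperones. *Psmb2*, a structural β subunit, had 82.3 FPKM in WT PBS and 54.6 in WT ASNase, then 69.8 and 63.4 in the Gcn2-/- and 60.7 and 52.2 in the Atf4-/- groups. Its highest value was in WT PBS, and its difference in WT (-0.59) was under the error of 0.89. The single higher gene was *Psmd9*, a chaperone of ATPase ring assembly, with 13.7 and 17.0 FPKM in WT, 15.1 and 19.3 in Gcn2-/- and 12.7 and 18.8 in Atf4-/- livers (PBS, then ASNase). It was higher with ASNase in all 3 strains, by 0.30, 0.35 and 0.56 log2 units, each under the error of 0.87 to 0.94, and 25.5% of its exon bases are shared with another annotated gene.

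In Gcn2-/- livers the same treatment left no common direction, with 25 genes higher and 22 lower and a median of 0.02, as over all genes (0.02). None was called (3.69% of all genes), and none exceeded its error (8.69% of all genes). Here 4 genes were more than 1.5-fold higher, against 15.3% of all genes, and none more than 1.5-fold lower, against 16.6%. The 4 were *Psmb8*, *Psmd10*, *Psmc5* and *Psmc4*.

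The ATPases that thread substrate into the core had a median of 0.20, with 5 of 6 higher, while 6 of the 7 compared α genes were lower. *Psmc5* had 53.1 and 42.3 FPKM in WT, 47.4 and 76.2 in Gcn2-/- and 47.5 and 61.8 in Atf4-/- livers (PBS, then ASNase). *Psmc4* had 60.2 and 49.2, 46.7 and 72.5, and 48.6 and 81.8 FPKM in the same order. Both had lower values with ASNase in WT and higher ones in both knockouts, and no difference passed its error. *Psmd10*, gankyrin, a chaperone that holds the ATPase *Psmc4* during assembly, had 8.68 and 7.34, 9.17 and 15.3, and 8.03 and 9.42 FPKM in that order. The Gcn2-/- ASNase value stood above the other 5, and it exceeded WT ASNase by more than the combined error (1.05 against 0.998). Of the α genes, *Psma7* had 130 and 107, 136 and 111, and 124 and 156 FPKM, and *Psma5* 52.3 and 40.0, 47.0 and 38.5, and 40.9 and 36.3. *Psma3*, the α gene that varied least, had 169 and 134, 158 and 132, and 136 and 140 FPKM.

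In Atf4-/- livers ASNase split the genes. The core, regulatory and assembly genes were mostly higher, and the 3 immunoproteasome and 2 PA28 genes were the lowest of all. Over the 49 genes the median was 0.22, against 0.08 over all 9485 genes compared, with 34 of 47 higher (72.3% against 53.8% of all genes). Without the immunoproteasome and PA28 genes and *Psmc3ip*, 33 of 41 were higher. None was called, against 7.37% of all genes, 3 were more than 1.5-fold higher, against 23.4%, and 5 more than 1.5-fold lower, against 22.2%. One gene, *Psme1*, exceeded its combined error, against 14.8% of all genes.

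By subgroup the medians were 0.37 for the ATPases with 6 of 6 higher, 0.29 for the non-ATPases with 9 of 11 higher, 0.32 for the core chaperones with 4 of 4 higher, 0.17 for the constitutive β genes, 0.03 for the 8 α genes (0.05 for the 7 compared) and -1.41 for the immunoproteasome genes. *Psmd8*, a lid subunit, had 76.98 and 68.9 FPKM in WT, 81.7 and 104 in Gcn2-/- and 71.0 and 137 in Atf4-/- livers (PBS, then ASNase). It had the highest value of its subgroup in Atf4-/- ASNase, where it was 1.93-fold above PBS, with a log2 difference of 0.95 equal to its error to 2 decimals and not past it. Against WT ASNase its difference of 0.99 passed the error of 0.95. *Psmd13*, another lid subunit, had 89.2 and 78.2, 96.0 and 128, and 86.5 and 130 FPKM, with intervals that reached 0 in all groups. *Psmd6*, also of the lid, moved least of all compared genes, with 52.6 and 46.1, 55.6 and 52.4, and 49.3 and 55.2 FPKM.

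**Figure D4:**
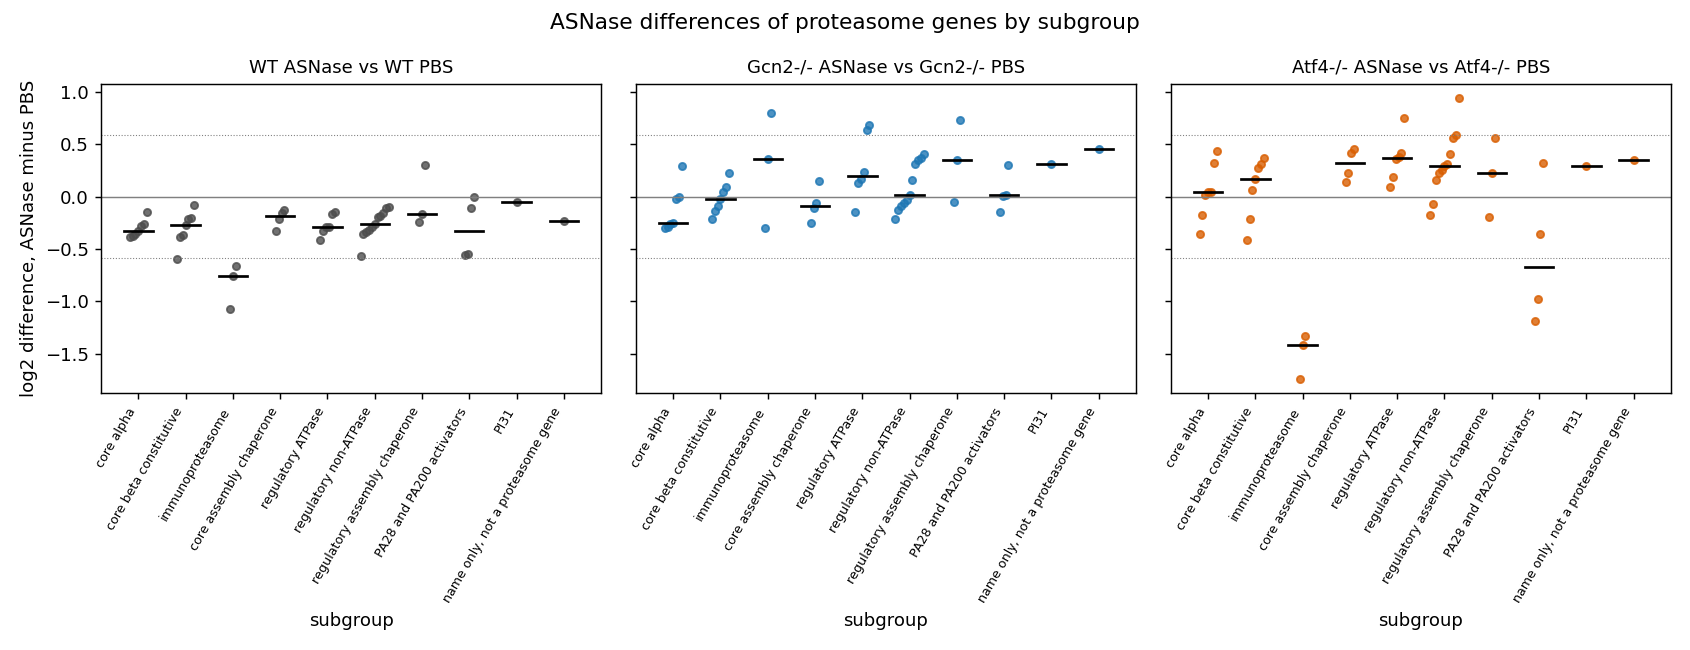
Log2 difference of ASNase minus PBS in WT, Gcn2-/- and Atf4-/- livers for the 47 compared genes (points) by subgroup, with black bars for the median of the compared genes and dotted lines at 1.5-fold. WT points lie below 0 except *Psmd9*, and in Atf4-/- livers the immunoproteasome genes lie between -1.74 and -1.34.

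The difference between the responses of 2 strains was set against the combined error of its 4 values. For no compared gene did it exceed that error in any of the 3 pairs of strains, while over all genes 4.34% did between Gcn2-/- and WT, 7.06% between Atf4-/- and WT and 3.78% between Atf4-/- and Gcn2-/-. The largest such difference was for *Psmb8*, whose response was 2.14 log2 units lower in Atf4-/- than in Gcn2-/- livers, against an error of 2.91. At this precision the responses of the strains could not be told apart for any single gene.

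Under PBS, the deletions left all but 1 gene within 1.5-fold of WT. In Gcn2-/- PBS livers 20 genes were higher and 27 lower, a share of 42.6% higher against 60.1% of all genes, with a median of -0.02 against 0.06. None was called, against 1.04% of all genes, none was more than 1.5-fold higher, against 4.59%, and none more than 1.5-fold lower, against 5.17%. In Atf4-/- PBS livers 45 of 47 genes were lower than in WT PBS, a share of 95.7% against 49.6% of all genes, with a median of -0.19 against 0.00. None was called, against 1.12% of all genes, none was more than 1.5-fold higher, against 4.19%, and 1 was more than 1.5-fold lower, against 4.81%. No gene passed its combined error in either comparison. Both comparisons, and that of ASNase in WT, share the WT PBS group, so a high proteasome value in WT PBS would enter all 3.

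*Psmd14*, the deubiquitinase of the lid that removes ubiquitin chains from substrates, was the gene past 1.5-fold. It had 47.3 and 31.8 FPKM in WT, 33.8 and 43.6 in Gcn2-/- and 29.5 and 43.6 in Atf4-/- livers (PBS, then ASNase). Its highest value was in WT PBS, and it lay lower in both knockouts under PBS, by 0.48 and 0.68 log2 units against errors of 1.20 and 1.17. *Psmd1*, a scaffold of the base, had 35.8 and 28.3, 25.8 and 22.2, and 28.9 and 27.6 FPKM, and the ATPase *Psmc2* 48.7 and 36.6, 41.6 and 46.8, and 35.6 and 47.5. In Gcn2-/- PBS the largest positive differences were 0.24 for *Psmc6*, 0.20 for *Psma4* and 0.18 for *Psmb6*. *Psmc6*, an ATPase, had 57.5 and 51.9, 68.0 and 61.5, and 56.2 and 59.8 FPKM, and *Psma4*, an α subunit, 122 and 102, 141 and 140, and 119 and 123. In Atf4-/- PBS only *Psmb8* (0.18) and *Psme4* (0.00) lay above WT PBS.

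Among genes not yet described, *Psmc3* varied least of the ATPases, with 89.6 and 80.1, 88.6 and 104, and 81.7 and 92.9 FPKM. *Psmb1* varied least of the constitutive β genes, with 144 and 120, 158 and 149, and 123 and 129 FPKM. *Psmd5*, another chaperone of the base, had 23.3 and 20.7, 22.7 and 21.8, and 19.6 and 17.1 FPKM. Of the core chaperones, *Psmg4* varied most, with 16.1 and 12.8, 15.7 and 17.4, and 14.0 and 19.2 FPKM, and *Psmg3* least, with 18.9 and 17.3, 19.2 and 18.4, and 15.8 and 17.4. *Psmf1*, PI31, a binding partner of the core, had 16.0 and 15.5, 15.4 and 19.1, and 14.0 and 17.2 FPKM. The name-only gene *Psmc3ip* lay at 3.62 to 6.38 FPKM. The remaining compared genes, *Psma1*, *Psma2*, *Psma6*, *Psmb3*, *Psmb4*, *Psmc1*, *Psmd2*, *Psmd3*, *Psmd4*, *Psmd7*, *Psmd11*, *Psmd12*, *Psmg1* and *Psmg2*, spanned 0.31 to 0.62 log2 units over the 6 groups.

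Under ASNase the knockouts could be compared directly. Against WT ASNase, Gcn2-/- livers had 37 of 47 genes higher (78.7% against 53.6% of all genes), with a median of 0.31 against 0.05. None was called, against 4.41% of all genes, 8 were more than 1.5-fold higher, against 15.7%, and none more than 1.5-fold lower, against 15.9%. The 8 were *Psmb8*, *Psmb10*, *Psmd10*, *Psme2*, *Psmc5*, *Psmd13*, *Psmd8* and *Psmc3ip*, and *Psmd10* was the only one past its error. Atf4-/- livers had 34 of 47 genes higher than WT ASNase (72.3% against 53.9% of all genes), with a median of 0.20 against 0.07. None was called, against 8.25% of all genes, 3 were more than 1.5-fold higher (*Psmd8*, *Psmd13* and *Psmc4*), against 22.9%, and 3 more than 1.5-fold lower (*Psmb9*, *Psme1* and *Psmb10*), against 22.9%.

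Between the 2 knockouts under ASNase, the median was -0.07 over the 49 genes and -0.04 over the 43 without the immunoproteasome and PA28 genes and *Psmc3ip*, against 0.01 over all genes. In Atf4-/- livers 17 genes were higher and 30 lower, and 36.2% were higher against 50.3% of all genes. None was called, against 3.19% of all genes, 1 was more than 1.5-fold higher (*Psme3*), against 14.1%, and 6 more than 1.5-fold lower, against 16.5%. The 6 were *Psmb10* (-1.91), *Psmb8* (-1.57), *Psmb9* (-1.50), *Psme2* (-1.33), *Psme1* (-1.27) and *Psmd10* (-0.69). Of these, only *Psme1* passed its combined error (1.103), while the errors of *Psmb10*, *Psmb9*, *Psme2* and *Psmb8* were 6.96, 5.48, 9.51 and 2.47.

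The interferon gamma axis and the MHC class I loading genes were read beside the immunoproteasome. The interferon gamma axis (12 genes: receptors, kinases, transcription factors such as *Irf1*, and target genes) had a median of -0.78 with ASNase in WT. There 7 genes were more than 1.5-fold lower, against 3.48% of all genes, none was more than 1.5-fold higher and none was called. In Gcn2-/- livers the median was 0.21, with *Gbp2* called, from 3.55 to 23.7 FPKM. Here 5 genes were more than 1.5-fold higher, against 15.3% of all genes, and 1 more than 1.5-fold lower, against 16.6%. In Atf4-/- livers the median of 11 compared genes was -0.89, with *Iigp1* called, from 174 to 29.5 FPKM. Of the 11, 6 were more than 1.5-fold lower, against 22.2% of all genes, and 1 more than 1.5-fold higher, against 23.4%. Between Atf4-/- ASNase and Gcn2-/- ASNase, the genes called lower included *Cxcl9* (0.199 against 22.4 FPKM), *Gbp2* (1.82 against 23.7), *Gbp3* (1.26 against 16.4), *Irgm1* (10.3 against 49.7) and *Iigp1* (29.5 against 112). These are the 2 groups between which *Psmb8* and *Psmb10* differed most.

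The MHC class I loading genes (11 genes: heavy chains, *B2m*, transporters and loading factors) had no common direction in Atf4-/- livers. Their medians with ASNase were -0.54 in WT with 11 of 11 lower, 0.53 in Gcn2-/- and 0.00 in Atf4-/- livers, and none was called. *Tap1*, which shares its start region with *Psmb9*, had 12.9 and 9.57, 9.20 and 13.4, and 11.5 and 9.03 FPKM. In Gcn2-/- ASNase *Tap1* was thus 0.53 above PBS where *Psmb9* was 0.30 below, with wide intervals for *Psmb9*. *Psmb9* shares 5.79% of its exon bases with *Tap1*, and unstranded reads there cannot be assigned to either gene. The largest positive difference in Atf4-/- livers was that of *Calr*, also a chaperone of the endoplasmic reticulum, from 285 to 740 FPKM.

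**Figure D5:**
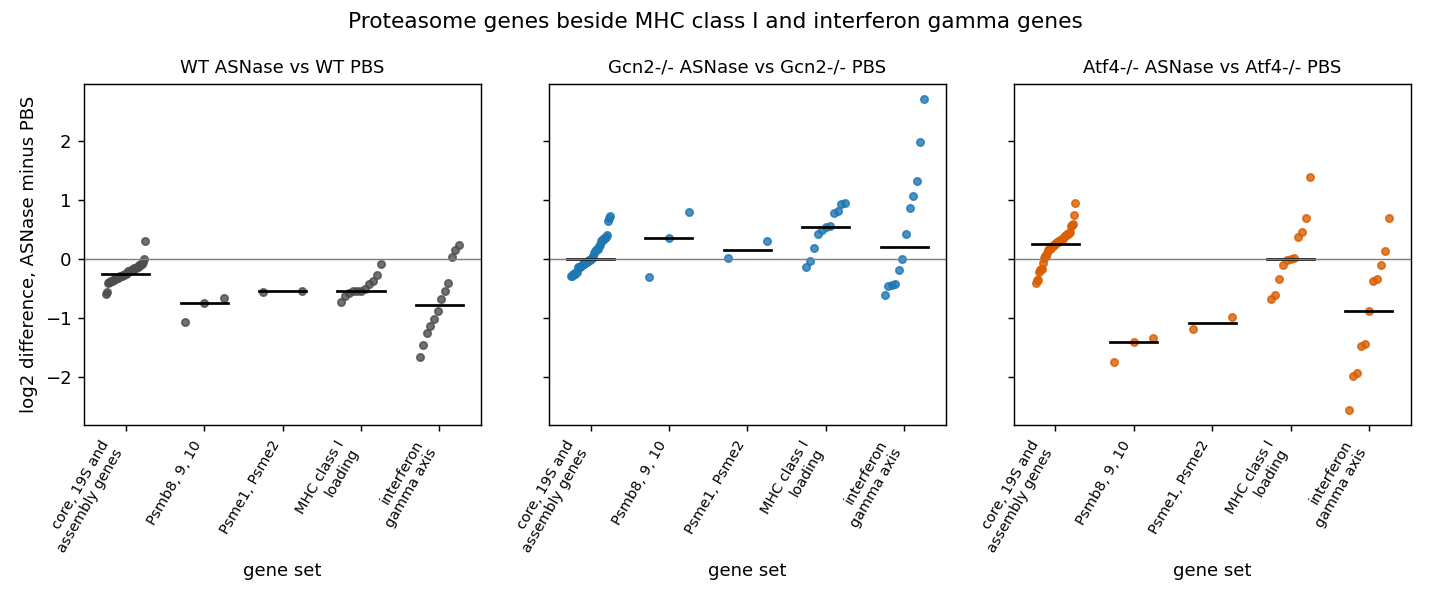
Log2 difference of ASNase minus PBS per gene (points, genes over FPKM 3 in either group) in each strain for 41 other proteasome genes, immunoproteasome genes, PA28 genes, MHC class I loading genes and interferon gamma axis genes, with black bars for medians. The immunoproteasome and interferon gamma medians are -0.75 and -0.78 in WT, 0.36 and 0.21 in Gcn2-/- and -1.41 and -0.89 in Atf4-/- livers.

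Immune cells express the immunoproteasome at high levels, so their markers were read in the same groups. The 7 T and NK cell markers summed to 4.80, 2.66 and 3.83 FPKM under PBS in WT, Gcn2-/- and Atf4-/- livers and to 1.49, 1.16 and 0.993 with ASNase, and none reached an FPKM of 3. The 4 B cell markers summed to 3.28, 2.32 and 2.87 under PBS and 0.8985, 0.534 and 0.268 with ASNase. Both sums were lower with ASNase in all 3 strains, and no B cell marker reached an FPKM of 3 either. The pan-leukocyte gene *Ptprc* had 2.42 and 1.73, 1.95 and 2.26, and 3.20 and 1.37 FPKM, lower with ASNase in WT and Atf4-/- and higher in Gcn2-/- livers. The 6 matched Kupffer cell and macrophage markers summed to 171 and 94.6, 114 and 175, and 184 and 139. All 6 were more than 1.5-fold lower with ASNase in WT, against 3.48% of all genes. In Gcn2-/- livers the list went both ways, and the higher sum came from *Marco*. There 2 were more than 1.5-fold higher (*Marco* and *Emr1*), against 15.3% of all genes, and 2 lower (*Clec4f* and *Vsig4*), against 16.6%. In Atf4-/- livers 3 were more than 1.5-fold lower (*Clec4f*, *Emr1* and *Vsig4*), against 22.2% of all genes, and 1 higher (*Marco*), against 23.4%. *Marco* was called higher with ASNase in both knockouts (8.32 to 118 and 9.22 to 67.3 FPKM), and *Clec4f* had 67.3 and 15.9 FPKM in Gcn2-/- livers. The 5 neutrophil markers summed to 7.57 and 5.43, 11.1 and 1.60, and 15.3 and 6.11 FPKM, lower with ASNase in each strain. *S100a9* was called lower with ASNase in Gcn2-/- livers (5.64 to 0.171 FPKM), and *Ly6g* was at 0 in 5 of 6 groups. The part of these cells in the immunoproteasome values was not tested.

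Genes around the proteasome showed no common call. Of 11 other proteasome genes, among them *Pomp*, *Adrm1* and *Usp14*, none was called in any comparison. *Pomp*, the chaperone that completes the core, had 182 and 131, 169 and 137, and 151 and 95.2 FPKM, lower with ASNase in each strain by 0.47, 0.30 and 0.66 log2 units. *Zfand2a*, a stress-induced partner of the regulatory particle, had 5.88 and 5.48, 3.62 and 5.46, and 4.31 and 8.39 FPKM. The 4 compared genes of the NRF1 pathway had medians of 0.19, -0.15 and 0.38 with ASNase in WT, Gcn2-/- and Atf4-/- livers, and none was called. *Nfe2l1* itself had 51.6 and 61.9, 47.6 and 41.5, and 54.7 and 93.9 FPKM, highest in Atf4-/- ASNase.

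Among the 5 compared ubiquitin and ubiquitin-activation genes, *Rps27a*, which encodes ubiquitin fused to a ribosomal protein, was called higher with ASNase in Atf4-/- livers (380 to 1226 FPKM) and had 360 and 374 FPKM in WT and 492 and 529 in Gcn2-/- livers. The 8 ubiquitin shuttle and VCP genes had medians of -0.08, 0.03 and 0.10 with ASNase and none was called, with *Ufd1l* (26.1 to 42.1 FPKM) and *Nploc4* (23.0 to 32.6) the largest differences in Atf4-/- livers.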

How the data were processed

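RNA-Seq of liver from 18 mice was analysed (3 per group, 6 groups), grouped by the sample labels. The authors prepared unstranded poly-A libraries, aligned the reads (single-end) with TopHat to mm10, then ran Cuffdiff. The deposited table holds 1 FPKM value for each of 37303 genes and 6 groups, estimated from the 3 libraries together, with interval bounds in FPKM and a status. A status other than OK stood beside 160 values. Values of single libraries, counts and depth were not used here, so the precision of a value was taken from its interval: for the proteasome genes over the limit the median distance to the edge was 44.8% to 46.2% of the value, against 51.3% to 54.2% over all genes.

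Groups were compared on log2(FPKM + 0.1), which understates the change of low genes, in 8 comparisons made over all genes by subtraction. The tools were Python 3.11.15 and pandas 2.3.3. The limits of FPKM over 3 and a log2 difference over 1.5 are those of the study's methods, and the interval condition was added here. No p-value was computed. Medians of a subgroup cover all its genes with status OK, and counts cover those that passed the FPKM limit. Only the comparison of 2 groups was tested on simulated data, with intervals narrower than those of the proteasome genes. Genes with values in every group were the active core subunits, the genes of widest and narrowest range in each subgroup, and the 3 largest differences each way in 5 comparisons (ASNase within each strain, each knockout under PBS). Members and gene lists were chosen with earlier results of these data known. Gene positions came from GENCODE M21 (GRCm38, the build of mm10) by Ensembl identifier, and 14 of the 49 genes share exon bases with another gene there, which unstranded reads cannot separate on opposite strands. Of the active core subunits, the share was 14.7% for *Psmb8*, 12.1% for *Psmb5*, 11.8% for *Psmb7*, 5.79% for *Psmb9* and 0 for *Psmb6* and *Psmb10*. Promoter sequences came from RefSeq (GRCm38.p6). Pseudocounts, filters, limits and a rescaling were varied. Single values of some genes of the lists are not reported here.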

Additional observations from a re-analysis of the deposited data

How the results depend on the processing

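No paired analysis was possible because each group has 1 pooled value and no value per library, and leaving out each replicate was not run for the same reason. Among the counts of calls, medians and ratios, 219 of the alternative values stayed within the spread allowed and 23 moved. For a set of single proteasome genes, the sign changed in 5 of 648 alternative values, and the largest shift was 0.148. A changed pseudocount cannot turn a sign, and the rescaling factors lay between -0.0319 and 0.0383 on the log2 scale. No difference over 0.1 could therefore change sign under these settings, so the kept signs are no check of it.

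Counts past a fold limit depend on that limit. At a lower limit (1 group 25% above the other) and at 2-fold the genes lower with ASNase in WT numbered 18 and 1, those higher in Gcn2-/- 10 and 0, those higher in Atf4-/- 15 and 0, and those lower in Atf4-/- 8 at the lower limit. Under PBS, 6 were lower in Gcn2-/- at the lower limit, and 6 and 0 in Atf4-/-. Under ASNase, 23 and 3 were higher in Gcn2-/- than in WT and 1 lower at the lower limit, 16 and 0 were higher in Atf4-/- than in WT and 6 and 1 lower, and 6 and 0 were higher in Atf4-/- than in Gcn2-/-.

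Called by the combined error at any fold, 1 gene passed in each of 4 comparisons: *Psme1* with ASNase in Atf4-/- and between the knockouts under ASNase, *Psmd10* in Gcn2-/- and *Psmd8* in Atf4-/- against WT under ASNase. Over all genes that rule called 154, 801, 1407, 192, 175, 860, 1473 and 721 in place of 80, 340, 699, 93, 101, 416, 790 and 298, in the order ASNase in WT, Gcn2-/- and Atf4-/-, Gcn2-/- and Atf4-/- against WT under PBS, the same under ASNase, and Atf4-/- against Gcn2-/- under ASNase. With no FPKM limit 124, 144 and 153 were called with ASNase in WT and for Gcn2-/- and Atf4-/- under PBS. Leaving out genes that share exon bases was chosen after seeing the data and kept every median within the spread allowed. At the median interval width a single gene is limited to differences of about 2-fold or more, and *Psmb8* and *Psmb9* to far larger ones. *Psmb10*, *Psme2*, *Psmd13* and *Psmc3ip*, with intervals that reached 0 in all 6 groups, could not be called at any fold.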
